A study of Mus musculus with 6 samples.

Results

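The genes described here are 42 genes that act in the G2 phase and in mitosis, chosen by name from the 55487 genes of the count table; each name matched 1 gene identifier, and all 42 had enough counts to be tested, among 21141 genes in all. They were measured in MIN6, a mouse cell line that secretes insulin and serves as a beta cell model. The 3 PTHrP libraries came from MIN6 cells transiently transfected with full-length parathyroid hormone-related protein, and the 3 DsRed libraries from MIN6 cells that received the vector of the red fluorescent protein DsRed in the same way. The cells of both groups had grown to confluence before lipofection, and RNA was taken no later than 3 days afterwards. The share of cells that took up a plasmid is not given in the sources used here, no untransfected library was analysed, and the labels do not say whether replicates were separate cultures; the p-values therefore reflect only the spread among these 6 libraries, which may be technical.

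A dividing cell passes from DNA replication through G2 into mitosis, in which the duplicated chromosomes are condensed, attached to a spindle and pulled apart. Entry is driven by the kinase Cdk1 with its cyclins, and exit follows when the anaphase-promoting complex (APC/C), a ubiquitin ligase, marks the cyclins and other substrates for destruction. Most genes of this stage are transcribed late in the cell cycle, through promoter sites known as the cell cycle genes homology region (CHR) and the CCAAT box of the factor NF-Y, with Foxm1 and the MuvB proteins as regulators. Adult beta cells divide rarely, whereas MIN6 is a proliferating tumour line. In bulk RNA, fewer cells in G2 and mitosis and less transcript per such cell cannot be told apart.

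The libraries held 84427033 to 94613684 gene counts. Pthlh, the gene of PTHrP, had 697, 553 and 797 counts in the PTHrP libraries, against 0, 4 and 8 counts in the DsRed libraries; both groups match their labels in this gene. All 10 beta cell markers examined were above 100 CPM (counts scaled to a common library size) in every library, with Ins2 at 32980 CPM or more. Of the 9 fibroblast, endothelial and immune markers none passed 3 CPM in any library. Their summed level was 3.16 to 5.14 CPM in the PTHrP libraries and 4.62 to 6.44 CPM in the DsRed libraries, and the part of these other cells in the results was not tested. PTHrP replicate 2 stood apart from the rest: its chi-square per gene against each of the others was 46.1 to 56.5, and that of all other pairs 8.25 to 31.0.

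The mitotic genes were expressed at a high level in both groups. Their mean levels lay between 56.2 CPM (Ttk) and 714 CPM (Top2a), and the level of the median member was above that of 96.0% of tested genes. The lowest count of any member in any library was 4734, for Ttk in PTHrP replicate 1. Levels are scaled by the trimmed mean of M-values (TMM), and fold changes are log2 of PTHrP over DsRed, each with a standard error (SE) that is approximate. To set different genes side by side, levels were divided by the exon length in kilobases, with all annotated exons of a gene merged. That length can exceed the transcript expressed, so ranks between genes are approximate. On this scale the highest level was that of Cdc20, the APC/C activator, at 224 CPM per kb. It was followed by the B-type cyclins Ccnb2 (149 CPM per kb) and Ccnb1 (131 CPM per kb) and by Aurka (115 CPM per kb). The lowest were the long kinetochore genes Cenpf, at 7.66 CPM per kb over 15433 exon bases, and Cenpe, at 12.6 CPM per kb, with the checkpoint kinase Ttk at 11.4 CPM per kb between them. Exons of 13 members overlap those of another gene, over 1271 bases in Kif20a (with Cdc23) and 944 bases in Ncapg (with Lcorl, at 95.1 CPM in PTHrP cells and 106 CPM in DsRed cells). Where the partner lies on the opposite strand, reads there cannot be assigned without the strand. In Foxm1, Ncapd2 and Top2a the partners lie on the same strand, so the strand would not separate such reads. The highest of these partners, Tex52 in Foxm1, averaged 0.829 CPM in PTHrP cells and 0.884 CPM in DsRed cells.

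**Figure D1:**
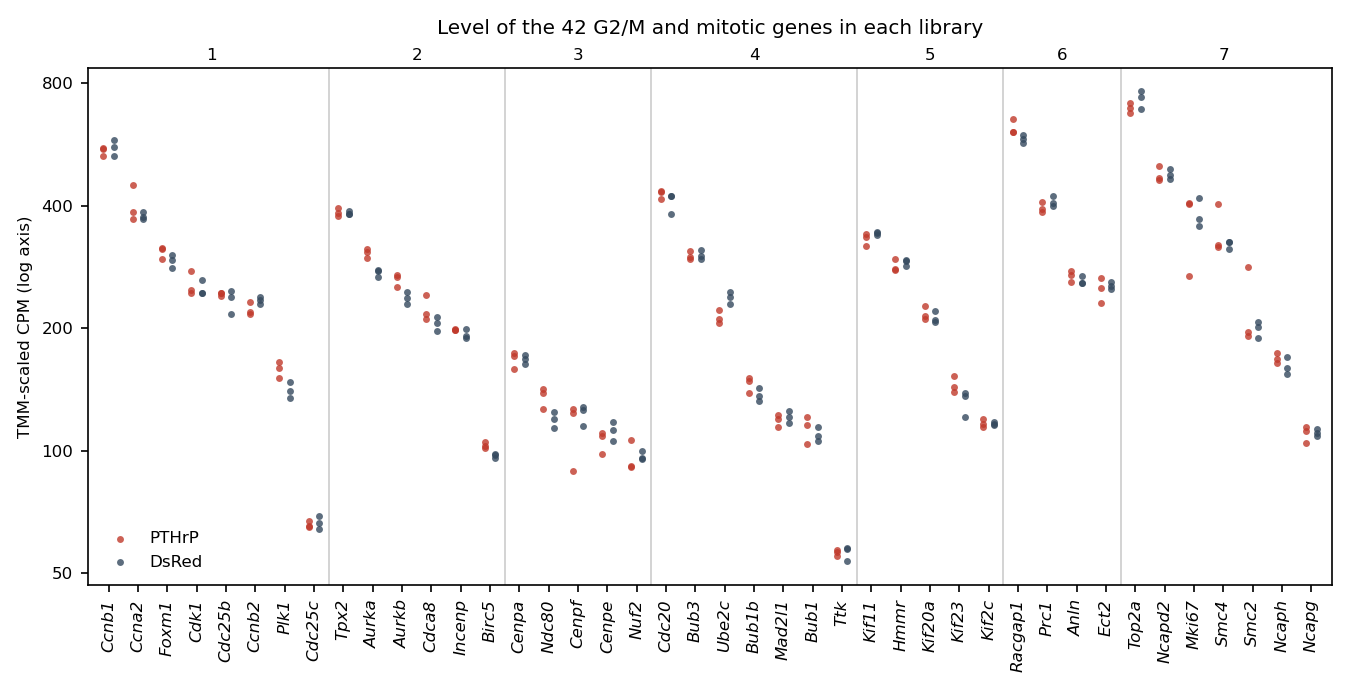
TMM-scaled CPM (log axis) of the 42 genes, with 1 point per library, PTHrP left and DsRed right for each gene. The numbered blocks run in the order cyclin and Cdk1 engine, Aurora kinases and passenger complex, kinetochore, checkpoint and APC/C, kinesins, central spindle, and condensin with Top2a and Mki67; the points of a gene lie close together, apart from a single PTHrP library in Mki67, Cenpf, Smc2, Smc4 and Ccna2.

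Promoter windows show how many of these genes hold the sites named above. The choice by name used no sequence, but the sites are known from genes of this stage, so a high share is not an independent result. RefSeq windows on GRCm38.p6, from 250 bases before to 50 bases after the start site, were found for 34 of the 42 genes; Ccna2, Kif20a, Aurkb, Tpx2, Incenp, Smc4, Cdc25c and Foxm1 had none. The last 30 bases of the window lay unbroken in a GENCODE M21 transcript of the gene for 28 of the 34. A miss can come from a start site that differs between the annotations or from a first exon that ends inside the window. Searched on both strands, the CHR letters TTTGAA were present in 26 of the 34 windows (76.5%), against 12.7% of the 13233 tested genes with a window and 18.1% of all 27025 promoters. The letters CCAAT were present in 27 of the 34 (79.4%), against 38.6% of the tested genes and 37.9% of all promoters. Both were present in 23 of 34 (67.6%), against 5.25% of the tested genes and 7.12% of all promoters, and 17 of 34 held at least 2 CCAAT boxes, against 14.4% and 12.2%. A CHR match began within 50 bases of the start site in 23 of the 34, a range set after the positions were seen and not counted in other promoters. In 1 window a CHR match overlapped a CCAAT box, and in 1 (Ube2c) 2 CCAAT boxes overlapped. Ccnb1 held 2 CCAAT boxes and no TTTGAA in this window, and Birc5, Mad2l1, Ncaph and Nuf2 held neither, which says only that these letters are absent from these 300 bases. The Mad2l1 window ends at base 66535270, before the GENCODE start of the gene at 66535390. On the minus strand, the windows of Kif2c (117178723-117179022) and Cdca8 (124936868-124937167), each with 1 CHR match, lie wholly inside the gene. GENCODE starts these genes at 117182639 and 124939311 in turn.

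**Figure D2:**
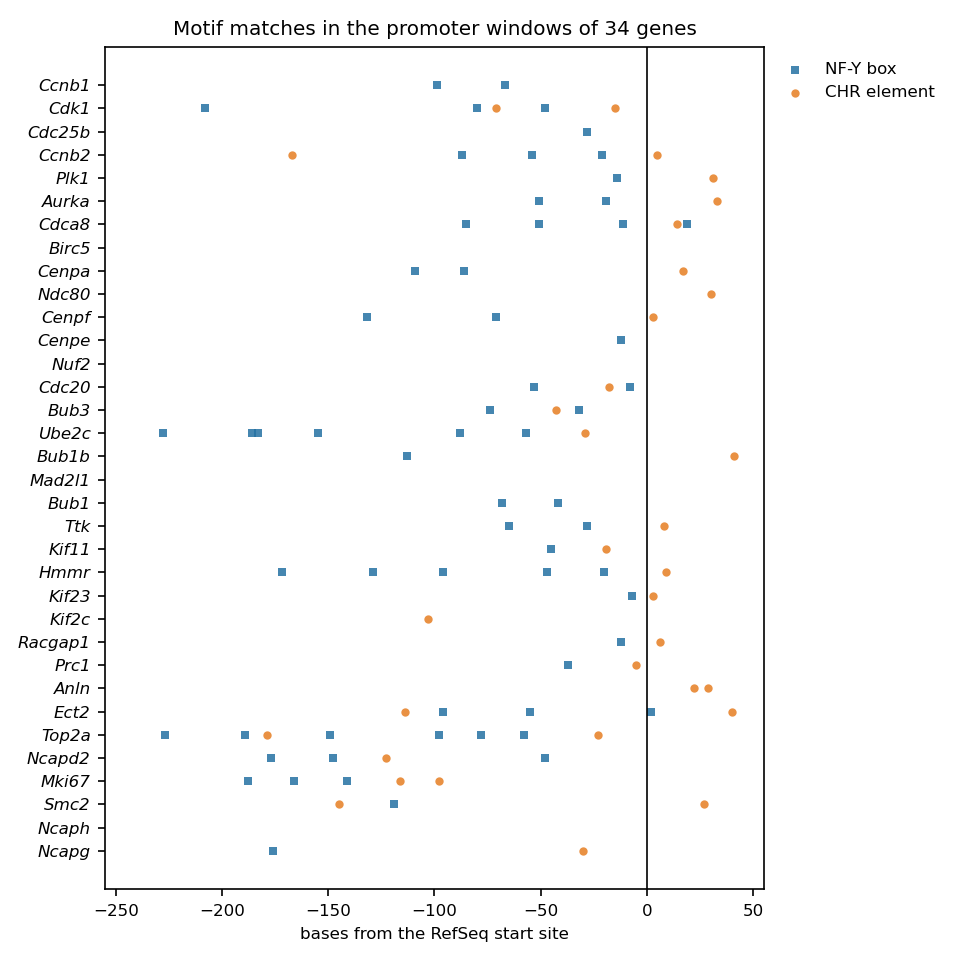
Position of each CHR match (orange circles) and each CCAAT or NF-Y box (blue squares) in bases from the RefSeq start site, for the 34 genes with a promoter window, in the order of the blocks. CHR matches gather near the start site, and CCAAT matches lie mostly upstream of it. The windows hold 250 bases before the start site and 50 after it, so most positions are upstream. Positions in other promoters were not counted.

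The windows of 5 genes are printed, 5′ to 3′ on the strand of the gene, with CHR and CCAAT matches in capitals. Aurka and Plk1 are shown because their levels were among those furthest above DsRed, and Ube2c because its level was furthest below. Cdk1 and Ccnb2 are shown as genes with both kinds of site whose groups overlapped, at log2 fold changes of 0.039 and -0.072. A link between sites and fold changes was not tested.
Aurka, chr2:172370521-172370820, minus strand: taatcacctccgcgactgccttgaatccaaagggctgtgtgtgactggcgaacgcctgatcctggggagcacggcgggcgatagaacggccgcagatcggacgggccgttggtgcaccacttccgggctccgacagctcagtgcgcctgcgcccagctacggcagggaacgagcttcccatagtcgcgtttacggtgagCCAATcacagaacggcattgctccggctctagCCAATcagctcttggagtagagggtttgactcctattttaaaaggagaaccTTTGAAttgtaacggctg
Plk1, chr7:122159185-122159484, plus strand: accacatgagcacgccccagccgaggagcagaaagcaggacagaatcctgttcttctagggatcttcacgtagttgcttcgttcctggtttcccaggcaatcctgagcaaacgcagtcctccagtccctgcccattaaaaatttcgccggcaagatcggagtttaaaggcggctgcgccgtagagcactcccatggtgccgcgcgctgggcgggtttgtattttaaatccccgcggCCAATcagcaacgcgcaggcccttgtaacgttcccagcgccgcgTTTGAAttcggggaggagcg
Ube2c, chr2:164769679-164769978, plus strand: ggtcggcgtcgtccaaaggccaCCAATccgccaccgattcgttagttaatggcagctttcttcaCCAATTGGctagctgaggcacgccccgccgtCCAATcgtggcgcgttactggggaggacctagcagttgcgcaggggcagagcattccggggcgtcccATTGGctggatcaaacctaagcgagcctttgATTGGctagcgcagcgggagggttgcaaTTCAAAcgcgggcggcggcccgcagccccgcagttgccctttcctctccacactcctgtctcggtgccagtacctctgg
Cdk1, chr10:69352863-69353162, minus strand: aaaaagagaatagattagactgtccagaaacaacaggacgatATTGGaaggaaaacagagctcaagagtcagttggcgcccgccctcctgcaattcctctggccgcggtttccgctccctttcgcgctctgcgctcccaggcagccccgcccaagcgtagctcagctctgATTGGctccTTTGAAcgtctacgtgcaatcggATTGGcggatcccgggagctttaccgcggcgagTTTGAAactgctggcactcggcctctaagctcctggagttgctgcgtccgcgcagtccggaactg
Ccnb2, chr9:70421505-70421804, minus strand: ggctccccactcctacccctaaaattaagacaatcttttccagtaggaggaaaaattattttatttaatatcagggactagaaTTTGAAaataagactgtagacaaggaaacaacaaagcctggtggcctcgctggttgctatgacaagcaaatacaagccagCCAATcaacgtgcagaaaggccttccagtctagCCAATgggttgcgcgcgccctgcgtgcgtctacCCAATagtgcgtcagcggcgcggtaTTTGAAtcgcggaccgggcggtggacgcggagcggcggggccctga
Aurka, Plk1 and Ube2c each held 1 CHR match, starting at base 33 and base 31 after the start site and 29 bases before it in turn, and Cdk1 and Ccnb2 held 2 each. CCAAT boxes numbered 2 in Aurka, 1 in Plk1, 6 in Ube2c, 3 in Cdk1 and 3 in Ccnb2. These 5 were picked in part for holding both kinds of site; Ndc80, the gene with the highest fold change, has 1 CHR match and 0 CCAAT boxes in its window.

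Between PTHrP and DsRed cells no mitotic gene passed the test, and the fold changes were small. The edgeR quasi-likelihood test with Benjamini-Hochberg adjustment called 0 of the 42 members, in a comparison in which it called 0.0426% of the genes tested. DESeq2 and limma-voom called 0 of the 42 as well. At an unadjusted p under 0.05 there were 5 members (11.9%), 4 higher and 1 lower, beside 8.9% of all genes tested. DESeq2 and limma-voom also gave 5 members each, beside 8.72% and 9.30% of all genes. With no filter on low counts there were 7 members, beside 6.55% of all genes. With limma-voom and library quality weights there were 7 as well, beside 16.8%. Fold changes were positive for 24 members and negative for 18, with a median of 0.019 beside -0.0068 over all genes. They ran from -0.16 for Ube2c to 0.19 for Ndc80. The counts of signs shift with the scaling, to 21 positive and 21 negative with upper-quartile factors and to 27 and 15 with library sizes alone, because Bub3, Cenpa, Kif2c, Ncapd2, Tpx2 and Ttk lie close to 0.

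The intervals bound the difference in bulk RNA between these libraries, and rest only on the spread among them, which may be technical. The share of cells that took up a plasmid is not given, so the intervals do not bound a change within transfected cells. Such a change was not tested. For all 42 members the 95% interval of the fold change, unadjusted for the number of genes, lay inside 1.5-fold in either direction, as it did for 50.1% of all genes tested. For 32 members it lay inside 1.2-fold, beside 20.8% of all genes. The 10 exceptions to the narrower bound were Aurka, Aurkb, Plk1, Ndc80, Kif23, Ube2c, Mki67, Cenpf, Smc2 and Smc4. Over all members the outermost bounds were -0.49 (Mki67) and 0.51 (Smc2). The median spread between libraries of a group was 0.053 (SD of log2 CPM) for the members and 0.220 for all genes tested, most of which have far lower levels.

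Summed over the 42 genes, the level was 10668, 10792 and 10627 CPM in the PTHrP libraries, against 10421, 10720.0 and 10447 CPM in the DsRed libraries, a ratio of the group means of 1.02. The ranges of the groups overlap. In single genes, all 3 PTHrP libraries lay above all 3 DsRed libraries for 7 members (16.7%), beside 8.45% of all genes tested, and below them for 1 member (2.38%), beside 7.88%. The 7 were Aurka, Ndc80, Plk1, Aurkb, Kif23, Racgap1 and Birc5, and the 1 was Ube2c.

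**Figure D3:**
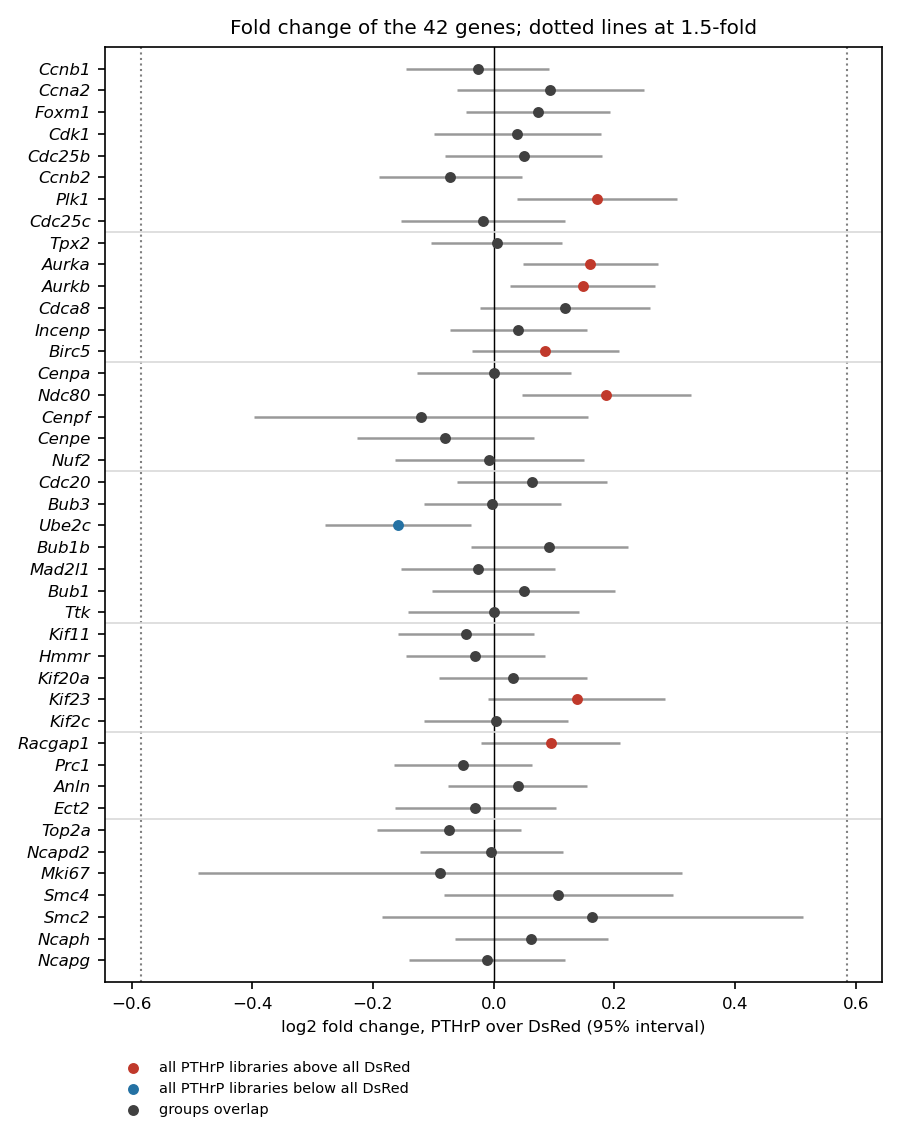
Log2 fold change, PTHrP over DsRed, of each member (points) with its 95% interval (bars), in the blocks of the level plot; red points mark genes whose PTHrP libraries all lay above DsRed, the blue point the gene whose PTHrP libraries all lay below, and dotted lines 1.5-fold. All bars end inside the dotted lines, and 37 of 42 cross 0.

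In the engine of mitotic entry the fold changes lay close to 0, with Plk1 the furthest from it. The 8 genes of this group are Cdk1, its cyclins Ccna2, Ccnb1 and Ccnb2, the phosphatases Cdc25b and Cdc25c that activate Cdk1, the kinase Plk1 and the transcription factor Foxm1; 5 had positive and 3 negative fold changes, and none passed. Cdk1 had 249, 277 and 245 CPM in the PTHrP libraries, against 244, 262 and 244 CPM in the DsRed libraries, giving a log2 fold change of 0.039 (SE 0.063, 95% interval -0.099 to 0.18, adjusted p = 0.903). Its groups overlap, and the highest value is that of PTHrP replicate 2. Ccnb1, cyclin B1, the partner of Cdk1 in mitosis, had 552, 530.2 and 556 CPM in PTHrP, against 559, 579.9 and 529 CPM in DsRed, giving a log2 fold change of -0.026 (SE 0.054, 95% interval -0.14 to 0.091, adjusted p = 0.922). Its values interleave. The pseudogene Ccnb1-ps had 5.67 to 7.92 CPM, and reads that match both could have been split in counting.

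Ccna2, cyclin A2, which acts from S phase to early mitosis, had 372, 451 and 387 CPM in PTHrP cells, against 376, 386 and 371 CPM in DsRed cells, giving a log2 fold change of 0.094 (SE 0.070, 95% interval -0.061 to 0.25, adjusted p = 0.748). PTHrP replicate 2 lies above the other 5 libraries, which share one range. Foxm1, the transcription factor of many G2 and mitotic genes, had 315, 313 and 296 CPM in PTHrP cells, against 282, 303 and 294 CPM in DsRed cells, giving a log2 fold change of 0.073 (SE 0.054, 95% interval -0.046 to 0.19, adjusted p = 0.744). Plk1, a kinase of mitotic entry, centrosomes and cytokinesis on chromosome 7 (GRCm38 chr7:122159439-122169873), had 165, 151 and 159.8 CPM with PTHrP, against 135, 148 and 141 CPM with DsRed, giving a log2 fold change of 0.17 (SE 0.061, 95% interval 0.038 to 0.30, adjusted p = 0.427). Its groups do not overlap, and the unadjusted p was 0.0160. Among the rest, Ccnb2 had -0.072, Cdc25b 0.050 and Cdc25c -0.017 as log2 fold changes.

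The Aurora kinases and their partners all had positive fold changes, 6 of 6 with a median of 0.10, though none passed; Tpx2 turned negative with upper-quartile factors (-0.0031) and with the filter of 1 CPM (-0.0049). The chromosomal passenger complex holds the kinase Aurkb with Incenp, Birc5 (survivin) and Cdca8 (borealin), corrects faulty spindle attachments and later acts in cytokinesis; Aurka, activated by Tpx2, builds the spindle poles. Aurka, at GRCm38 chr2:172356190-172370535, had 309, 297 and 313 CPM in the PTHrP libraries, against 277, 278 and 268 CPM in the DsRed libraries, giving a log2 fold change of 0.16 (SE 0.051, 95% interval 0.048 to 0.27, adjusted p = 0.385). It had the smallest unadjusted p of all members, 0.00930, and its groups are apart by more than the spread within either. Tpx2, its activator, averaged 386 ± 8.27 CPM in PTHrP cells and 385 ± 3.92 CPM in DsRed cells (SD, n = 3 each), with a log2 fold change of 0.0049 (interval -0.10 to 0.11).

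Aurkb, at GRCm38 chr11:69045647-69051664, had 252, 270.5 and 267 CPM in PTHrP cells, against 237, 246 and 229.9 CPM in DsRed cells, giving a log2 fold change of 0.15 (SE 0.055, 95% interval 0.027 to 0.27, adjusted p = 0.457). The groups do not overlap. Birc5 had 102, 103 and 105 CPM with PTHrP, against 97.6, 95.9 and 97.9 CPM with DsRed, giving a log2 fold change of 0.085 (SE 0.056, 95% interval -0.036 to 0.21, adjusted p = 0.698). Its groups do not overlap either, and its values lie within a narrow range in each. Cdca8 had a log2 fold change of 0.12 and Incenp of 0.041, both with overlapping groups. Per kilobase the 4 subunits stood at 85.02 (Aurkb), 45.3 (Incenp), 41.4 (Cdca8) and 29.4 (Birc5) CPM per kb. The mean log2 CPM of the 6 genes was 7.82, 7.85 and 7.83 in the PTHrP libraries and 7.73, 7.77 and 7.72 in the DsRed libraries. Among the 7 role groups this was the only one in which the 3 PTHrP means and the 3 DsRed means did not overlap. The role groups were drawn up with earlier results of these data known. In this group Aurka, Aurkb and Birc5 (50%) each had PTHrP libraries all above DsRed, beside 8.45% of all genes tested. The group mean in part restates these 3 genes.

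**Figure D4:**
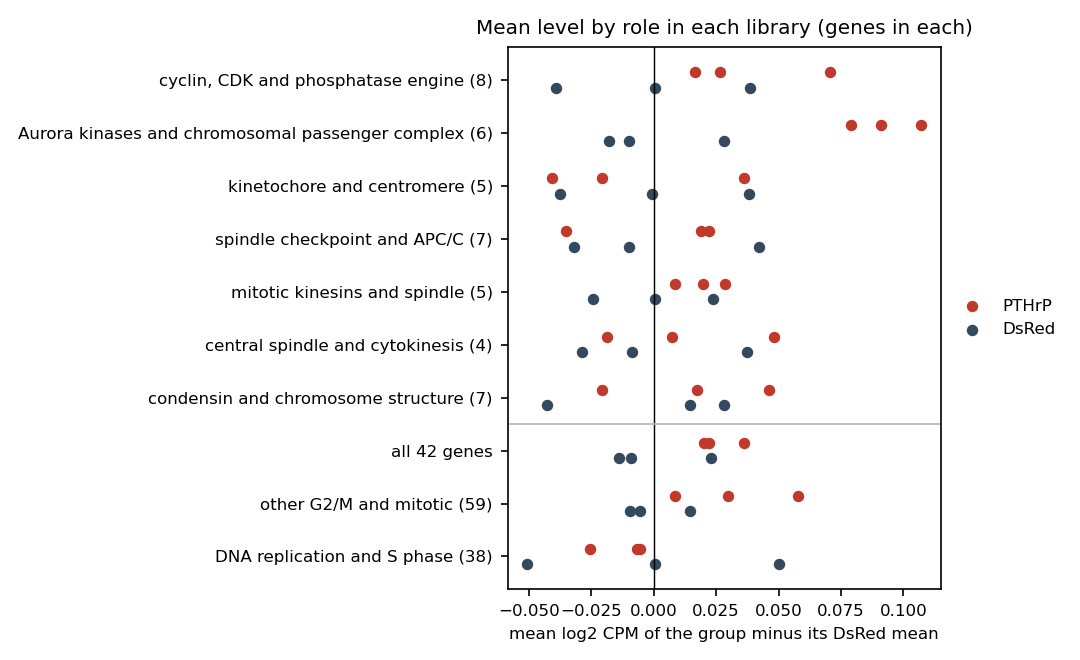
Mean log2 CPM of each role group in each library, minus the mean of the 3 DsRed libraries, with PTHrP (red) drawn above DsRed (dark); below the line are all 42 genes, 59 further G2/M and mitotic genes and 38 genes of DNA replication. The red points of the Aurora and passenger group lie to the right of its dark points, and in the other 6 role groups the points mix.

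Kinetochore genes showed no common direction, with 2 positive and 3 negative fold changes and a median of -0.0074. Ndc80 and Nuf2 encode the pair that forms the microtubule-binding end of the Ndc80 complex. Ndc80, at GRCm38 chr17:71496100-71526857, had 127, 142 and 139 CPM in PTHrP cells, against 114, 120.0 and 124 CPM in DsRed cells, giving a log2 fold change of 0.19 (SE 0.064, 95% interval 0.048 to 0.33, adjusted p = 0.406). Its groups do not overlap, and it had the highest fold change of the 42. Nuf2, its partner, had 91.5, 106 and 91.2 CPM in PTHrP, against 95.7, 95.2 and 99.7 CPM in DsRed, giving a log2 fold change of -0.0074 with an interval of -0.16 to 0.15. The difference in fold change between the partners was not tested.

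Cenpf, a large protein of the outer kinetochore, had 124, 89.3 and 127 CPM in PTHrP cells, against 126, 115 and 128 CPM in DsRed cells, giving a log2 fold change of -0.12 (SE 0.12, 95% interval -0.40 to 0.16, adjusted p = 0.828). PTHrP replicate 2 is the low library, and without it the log2 fold change was 0.027. Cenpe, a kinetochore kinesin, had -0.080, and Cenpa, the histone variant that marks centromeres, had 168 ± 8.19 CPM in PTHrP cells and 168 ± 4.52 CPM in DsRed cells (SD, n = 3 each), a log2 fold change of 3.0e-04.

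In the spindle checkpoint and the APC/C, Ube2c had the most negative fold change of all 42 genes, and none passed. The checkpoint proteins Bub1, Bub1b (BubR1), Bub3, Mad2l1 and the kinase Ttk (Mps1) hold back the APC/C until all chromosomes are attached, Cdc20 activates it, and Ube2c is the ubiquitin-conjugating enzyme that works with it. Of these 7 genes 3 had positive and 4 negative fold changes, with a median of -1.0e-04. Ube2c, at GRCm38 chr2:164769898-164778822, had 206, 222 and 210.2 CPM in the PTHrP libraries, against 238, 245 and 229 CPM in the DsRed libraries, giving a log2 fold change of -0.16 (SE 0.055, 95% interval -0.28 to -0.037, adjusted p = 0.414). All PTHrP values lie below all DsRed values, and the unadjusted p was 0.0148. Its exons overlap those of Tnnc2 on the opposite strand over 592 bases, a gene at 0 CPM in PTHrP cells and 0.0077 CPM in DsRed cells on average.

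Cdc20 had 417, 433 and 434 CPM with PTHrP, against 423, 423 and 383 CPM with DsRed, giving a log2 fold change of 0.063 (SE 0.057, 95% interval -0.061 to 0.19, adjusted p = 0.8001). DsRed replicate 3 is the low library, and the rest share one range. Bub1b had 151, 139 and 148 CPM in PTHrP cells, against 132, 143 and 136 CPM in DsRed cells, giving a log2 fold change of 0.092 (SE 0.059, 95% interval -0.038 to 0.22, adjusted p = 0.697), with groups that overlap. Ttk, the member with the lowest level, had 54.99, 57.0 and 56.5 CPM with PTHrP, against 57.6, 57.4 and 53.5 CPM with DsRed, and the means of its groups were equal to 3 digits. Bub3 and Mad2l1 had -0.0023 and -0.027, and Bub1 had 0.050, as log2 fold changes; the sign for Bub3 and Ttk turned with library sizes alone.

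Among the 5 kinesin and spindle genes, 3 fold changes were positive and 2 negative, and none passed. Kif11 (Eg5), which pushes the spindle poles apart, had 341, 318 and 334 CPM in PTHrP cells, against 338, 343 and 344 CPM in DsRed cells, giving a log2 fold change of -0.046 (SE 0.051, 95% interval -0.16 to 0.066, adjusted p = 0.845), and PTHrP replicate 2 was lowest. Kif23, a kinesin of the central spindle, had 139.6, 152 and 143 CPM in PTHrP cells, against 121, 136 and 138 CPM in DsRed cells, giving a log2 fold change of 0.14 (SE 0.067, 95% interval -0.0089 to 0.28, adjusted p = 0.586). Its groups do not overlap, though the lowest PTHrP and highest DsRed values nearly touch. Kif2c (MCAK), a microtubule depolymerase, had 117 ± 2.48 CPM in PTHrP cells and 116 ± 0.9752 CPM in DsRed cells (SD, n = 3 each), a log2 fold change of 0.0037, Kif20a had 0.032 and Hmmr, a spindle-assembly factor and hyaluronan receptor, -0.030.

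The 4 cytokinesis genes had 2 positive and 2 negative fold changes, and none passed. Racgap1, which forms the centralspindlin complex with Kif23, had 608, 655 and 607 CPM with PTHrP, against 584, 597 and 571 CPM with DsRed, giving a log2 fold change of 0.094 (SE 0.053, 95% interval -0.021 to 0.21, adjusted p = 0.645). As in Kif23 the groups do not overlap. Prc1, which bundles microtubules of the central spindle, had a log2 fold change of -0.051, the RhoA exchange factor Ect2 -0.030 and the contractile ring scaffold Anln (anillin) 0.040. For all 4 genes the 95% interval lay inside 1.2-fold.

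The chromosome group holds Mki67 and Smc2, the members with the widest spread between libraries, with 3 positive and 4 negative fold changes, a median of -0.0038 and no gene whose groups were apart. Top2a, the DNA topoisomerase that untangles sister chromatids and has the highest CPM of the members, had 696, 715 and 678 CPM in PTHrP cells, against 694, 739 and 765 CPM in DsRed cells, giving a log2 fold change of -0.074 (SE 0.054, 95% interval -0.19 to 0.045, adjusted p = 0.738). Mki67, the proliferation antigen Ki-67 that coats mitotic chromosomes, had 404, 269 and 407 CPM in PTHrP cells, against 372, 357 and 419 CPM in DsRed cells, giving a log2 fold change of -0.088 (SE 0.17, 95% interval -0.49 to 0.31, adjusted p = 0.918). PTHrP replicate 2 is far below the other 5 libraries, and without it the log2 fold change was 0.085 (adjusted p = 0.588), so the sign of the difference rests on that library.

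Condensin, the complex that compacts chromosomes, is built from the ATPases Smc2 and Smc4 with Ncapd2, Ncapg and Ncaph in condensin I. Smc2 had 191, 283 and 195 CPM with PTHrP, against 189, 201 and 207 CPM with DsRed, giving a log2 fold change of 0.16 (SE 0.15, 95% interval -0.19 to 0.51, adjusted p = 0.809). Smc4 had 320.2, 404 and 317 CPM with PTHrP, against 314, 327 and 326 CPM with DsRed, giving a log2 fold change of 0.11 (SE 0.086, 95% interval -0.083 to 0.30, adjusted p = 0.763). In both, PTHrP replicate 2 is the high library and the other 5 lie in one range, and without it the log2 fold changes were -0.041 for Smc2 and -0.014 for Smc4. The 3 other subunits did not share that peak: in PTHrP replicate 2 Ncapd2 had 468, Ncapg 114 and Ncaph 164 CPM, within or near the range of the other libraries, and their log2 fold changes were -0.0038, -0.011 and 0.063.

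**Figure D5:**
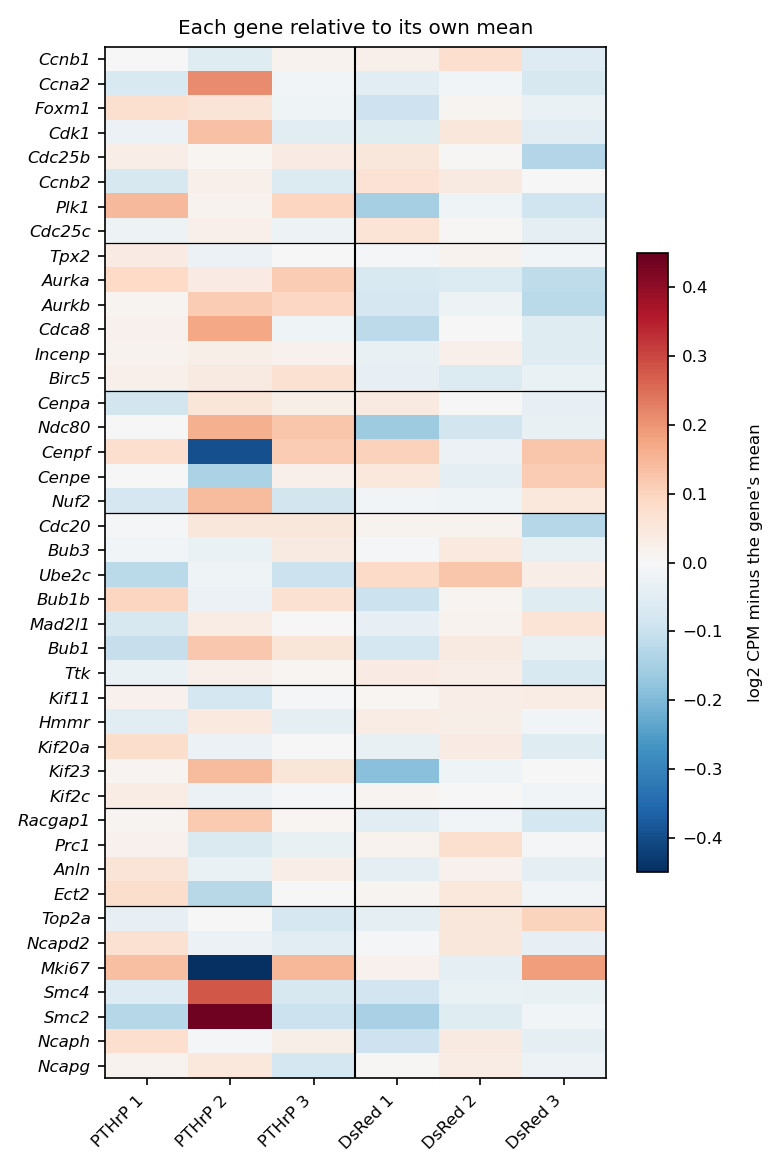
Log2 CPM of each member in each library minus the gene's mean over the 6 libraries (red above, blue below), with genes in the blocks of the level plot and PTHrP left of DsRed. The darkest cells are those of PTHrP replicate 2, low in Mki67 and Cenpf and high in Smc2 and Smc4.

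PTHrP replicate 2 was the highest or lowest of the 6 libraries for 23 of the 42 members (54.8%), beside 46.4% of all genes tested. DsRed replicate 3 was so for 19 members (45.2%), beside 33.3% of all genes. Relative to the other 2 PTHrP libraries, the log2 CPM of PTHrP replicate 2 was lower by 0.59 in Mki67 and 0.49 in Cenpf, and higher by 0.55 in Smc2, 0.34 in Smc4 and 0.25 in Ccna2. The SD of such deviations over the 42 members was 0.18 in that library, against 0.060 to 0.11 in the other 5. Over all genes tested it was 0.71 in that library, against 0.54 to 0.70 in the other 5. Over the members, the deviations had a Spearman correlation with exon length of 0.519 in DsRed replicate 3, -0.391 in DsRed replicate 2 and -0.084 in PTHrP replicate 2. It was -0.282 in DsRed replicate 1, 0.175 in PTHrP replicate 1 and 0 in PTHrP replicate 3. With the percentage of G and C bases in the transcript it was 0.161, 0.395 and -0.425 in DsRed replicates 1, 2 and 3. In PTHrP replicates 1, 2 and 3 it was 0.206, -0.219 and 0.088. Leaving out PTHrP replicate 2 gave 213 calls over all genes and still 0 among the members. The smallest adjusted p values of members in that fit were 0.0783 for Aurka (log2 fold change 0.18), 0.0858 for Plk1 (0.21) and 0.0979 for Ube2c (-0.19). At an unadjusted p under 0.05 there were 6 members in that fit, beside 13.0% of all genes tested. Leaving out PTHrP replicate 1 gave 3 members (8.87% of all genes) and leaving out PTHrP replicate 3 gave 0 (7.01%). Of the DsRed libraries, the fit lacking replicate 1 gave 2 members (5.16% of all genes), that lacking replicate 2 gave 4 (6.02%) and that lacking replicate 3 gave 5 (8.24%).

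Further genes of the same stage did not pass the test either. In a list of 59 other G2/M and mitotic genes, written with earlier results of these libraries known, all were tested and 0 passed, 36 had positive and 23 negative fold changes, and the median was 0.045. At an unadjusted p under 0.05 there were 4 higher and 1 lower (8.47% of the list), beside 8.9% of all genes tested. The 4 with the smallest p were Pimreg, a mitotic regulator, at 0.31 (adjusted p = 0.259), Spc24, a subunit of the Ndc80 complex, at 0.20 (adjusted p = 0.370), and the centromere genes Cenpm at 0.23 (adjusted p = 0.409) and Cenpi at -0.16 (adjusted p = 0.464). In this list 12 genes had PTHrP libraries all above DsRed and 1 all below, beside the 8.45% and 7.88% of all genes given above, or 20.3% and 1.69% of the list.

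The regulators upstream of these promoters did not pass either. Of 18 genes of the MuvB and DREAM complexes, their E2F and Rb family partners and NF-Y, 7 had positive and 11 negative fold changes, with a median of -0.049, and 1 (Nfyc) of the 18 had an unadjusted p under 0.05, beside 8.9% of all genes tested. The NF-Y subunits Nfyc and Nfyb had 0.15 (adjusted p = 0.510) and 0.15 (adjusted p = 0.575), Mybl2 (B-Myb) had 0.17 (adjusted p = 0.580) and Tfdp1, the E2F dimer partner, -0.16 (adjusted p = 0.567).

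Genes of the preceding stage, DNA replication and S phase, had 16 positive and 22 negative fold changes among 38, with a median of -0.0081 beside 0.019 for the mitotic genes, and 0 passed; at an unadjusted p under 0.05 there were 2 higher and 3 lower (13.2% of the list), beside 8.9% of all genes tested. In 4 of them (10.5%) all PTHrP libraries lay above DsRed and in 7 (18.4%) below, beside 8.45% and 7.88% of all genes tested; the difference from the mitotic genes was not tested. The furthest were Ccne2, cyclin E2, with 97.4, 98.8 and 104 CPM in PTHrP cells, against 137, 118 and 122 CPM in DsRed cells, at -0.33 (adjusted p = 0.202), and the replication licensing gene Cdc6 at -0.34 (adjusted p = 0.367). The histone mRNA-binding gene Slbp had -0.20 (adjusted p = 0.337), and the helicase subunit Mcm7 had 0.17 (adjusted p = 0.370), on the other side of 0.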

How the data were processed

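The authors deposited raw counts per gene for 3 PTHrP and 3 DsRed RNA-seq libraries of MIN6 cells. Per the submitters' processing notes, bcl2fastq, STAR and featureCounts 2.0.3 of Subread were used on GRCm38; annotation, strand setting and handling of multiply mapped reads: not given in the sources used here, and reads of overlapping or near-identical genes are uncertain. Groups and replicate numbers come from the titles.

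Of 55774 rows, 287 repeated an Ensembl identifier and were removed. Genes were filtered with filterByExpr by group (21141 kept), scaled with TMM and tested across all genes with the edgeR 4.0.16 quasi-likelihood F-test (robust, group term alone, two-sided, R 4.3.3), with p adjusted by Benjamini-Hochberg (threshold 0.05). SE was taken from the coefficient and its F statistic, and intervals use the test's degrees of freedom. Mean log2 CPM carries a prior count of 2. The common biological coefficient of variation was 17.7%. All 15 pairs of libraries differed by more than sampling noise. Alternatives were RLE, upper-quartile and unscaled library sizes, no filter, a filter of 1 CPM in 3 libraries, DESeq2 1.42.0, limma-voom 3.58.1 with and without library quality weights, the replicate number as a block, and each library left out in turn.

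Members and lists were chosen with earlier results of these data known, so no p is adjusted over a list. Values in each library are printed for 14 members fixed by name, the 6 with the smallest p, the 3 highest and 3 lowest fold changes and the members with the highest and lowest level; up to 4 genes of each other list are named. Racgap1, Nuf2, Smc4 and the Ncap genes were given in more detail after their values were seen. Exon lengths and positions are from GENCODE M21 on GRCm38, promoter windows from RefSeq on GRCm38.p6 (the first-listed window per gene). Scripts were tested on simulated counts. No fit dropped or imputed a member.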

Additional observations from a re-analysis of the deposited data

How the results depend on the processing

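No member passed under any of the 15 alternatives; the smallest adjusted p of a member was 0.0591, for Aurka with limma-voom and library quality weights, and 0.28 to 0.54 with the other 8 fits of all 6 libraries and 0.0783 to 0.949 with 1 library left out. The calls over all genes were 9 and moved to 14 with library sizes alone, 220 with no filter on low counts, 136 with DESeq2 and 188 with limma-voom and quality weights, and ranged from 2 (without DsRed replicate 2) to 213 (without PTHrP replicate 2) when each library was left out, with 4 without PTHrP replicate 1 or DsRed replicate 1. The cause was not tested. The median fold change of the members ranged from 0.0069 to 0.041 over the fits without 1 library, the highest without DsRed replicate 2. Aurka, Aurkb, Plk1, Ndc80, Kif23, Racgap1, Birc5 and Ube2c kept their direction in all 15 and are among the 23 members whose sign never changed. These genes are named because their groups did not overlap, so leaving out 1 library could hardly turn their sign. In 19 of 42 members the sign changed under at least 1 alternative, in 55 of 630 values, and no member reached the threshold with either sign. With RLE factors the log2 fold change was -7.7e-04 for Cenpa. With upper-quartile factors the log2 fold change was -0.0065 for Cenpa, -0.0043 for Kif2c and -0.0031 for Tpx2. With library sizes alone the log2 fold change was 0.0045 for Bub3, 0.0026 for Ncapd2 and 0.0069 for Ttk. With no filter the log2 fold change was 0.0054 for Bub3, 0.0037 for Ncapd2 and 0.0071 for Ttk. With the 1 CPM filter the log2 fold change was -0.0088 for Cenpa, -0.0061 for Kif2c and -0.0049 for Tpx2. With DESeq2 the log2 fold change was -7.6e-04 for Cenpa. With limma-voom the log2 fold change was -1.8e-05 for Cenpa and 0.0011 for Ttk. With limma-voom with quality weights the log2 fold change was 0.0089 for Bub3, -0.017 for Cdk1, -0.0052 for Cenpa, 0.0029 for Cenpf and 0.061 for Mki67. With the replicate block the log2 fold change was -4.5e-04 for Cenpa and 6.0e-04 for Ttk. With 1 library left out, sign changes occurred in Bub3 (-0.025 to 0.021), Ccnb1 (-0.061 to 0.0062), Cdc25b (-0.0019 to 0.086), Cdc25c (-0.042 to 0.0085), Cdk1 (-0.017 to 0.076), Cenpa (-0.025 to 0.039), Cenpf (-0.21 to 0.027), Ect2 (-0.079 to 0.025), Kif20a (-3.5e-04 to 0.062), Kif2c (-0.014 to 0.020), Mad2l1 (-0.052 to 0.0015), Mki67 (-0.19 to 0.085), Ncapd2 (-0.040 to 0.022), Ncapg (-0.035 to 0.023), Nuf2 (-0.082 to 0.028), Smc2 (-0.041 to 0.26), Smc4 (-0.014 to 0.17), Tpx2 (-0.013 to 0.021) and Ttk (-0.034 to 0.017). Replicate numbers share no stated origin: the correlations of same-numbered libraries' deviations were 0.023, -0.106 and 0.025. With the number as a block the calls over all genes were 7, the members called 0 and their median fold change 0.018. The intervals of most members still allow a difference between these libraries of under 1.2-fold in either direction.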

Other observations

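Among markers of other cell types, the glucagon gene Gcg was the exception to low levels, with 167, 135 and 175 CPM in the PTHrP libraries, against 147, 153 and 144 CPM in the DsRed libraries, a log2 fold change of 0.10 (edgeR, adjusted p = 0.782). Irx2, an alpha cell marker, had 3.30, 2.05 and 3.06 CPM in PTHrP cells and 2.07, 1.47 and 2.36 CPM in DsRed cells, and the somatostatin gene Sst had 12 counts or fewer. Of the acinar and duct markers, Ptf1a had 0 counts in all 6 libraries and Prss2 2 or fewer, while Cela1 had 1.44, 2.20 and 1.99 CPM in PTHrP cells and 1.30, 1.38 and 2.27 CPM in DsRed cells. The 10 beta cell markers had a mean log2 CPM of 10.33, 10.35 and 10.31 in the PTHrP libraries and 10.39, 10.42 and 10.46 in the DsRed libraries, which do not overlap; none of the 10 passed, and the smallest adjusted p (edgeR) was 0.374, for the prohormone convertase gene Pcsk1 at a log2 fold change of -0.21. In the insulin-gene regulator Mafa, PTHrP replicate 2 was low, as it was in Mki67 and Cenpf: the level was 1407, 804 and 1319.5 CPM in PTHrP cells and 1389, 1421 and 1449.5 CPM in DsRed cells.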
